A study of Mus musculus with 12 samples.

Results

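The 10 genes described here set how readily membrane lipids peroxidize in ferroptosis, the iron-dependent form of cell death driven by oxidized phospholipids. They were taken by name from a table of 56748 genes, and all 10 have a row: Gpx4, Aifm2, Dhodh and Gch1 of the defense against lipid peroxides and radicals, Acsl4 and Lpcat3 of the supply of polyunsaturated phospholipids, Por of peroxidation itself, and Acsl3, Scd1 and Mboat1 of the supply of monounsaturated phospholipids. RNA was sequenced from kidneys of male mice aged 8 to 12 weeks in 4 groups of 3 libraries. The groups were wild type (WT) or a knockout of Krt20 restricted to renal proximal tubular cells (cKO), after a sham operation or after ischemia/reperfusion (IR). In IR both renal pedicles were clamped for 30 minutes and the kidneys were taken 24 hours after the clamps came off, while sham mice had the surgery without clamping. The labels do not name the driver of the deletion, the allele of the WT mice or whether each library is a separate animal, so p-values measure the spread between libraries only, which may be technical.

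As background, ferroptosis begins when polyunsaturated fatty acids held in phospholipids are oxidized to hydroperoxides that iron turns into chain-carrying radicals. Acsl4 activates polyunsaturated fatty acids and Lpcat3 places them into phospholipids, whereas Acsl3, Scd1 and Mboat1 favor monounsaturated chains that do not carry the reaction. Gpx4 reduces the hydroperoxides with glutathione, and the enzymes encoded by Aifm2, Dhodh and Gch1 keep lipophilic radical traps (coenzyme Q and tetrahydrobiopterin) in their reduced form or make them. Proximal tubular cells, rich in mitochondria, are a known site of ferroptosis in ischemic kidney injury.

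The libraries held between 13187531 and 15962303 reads, recovered from the FPKM steps and the gene lengths. FPKM divides the fragments of a gene by its length and by the size of the library, so levels can be compared between genes. Pairwise Pearson r between libraries of a group, across genes, ranged from 0.944 to 0.975 in WT IR and was at least 0.965 in the other groups. Krt20, the deleted gene, had at most 4 reads in any sham library of either genotype. After IR it was 84.0, 64.9 and 59.9 FPKM in WT and 28.2, 35.6 and 47.0 FPKM in cKO, groups that did not overlap, with a log2 difference of −0.91 (SE 0.17, limma adjusted p = 0.132) that did not pass. Krt20 reads are therefore present in the libraries labelled cKO IR, and gene-level values cannot show from which cells or which part of the gene they came. The summed FPKM of 11 kidney segment markers was 3464 to 3786 in the sham libraries and 1081 to 2431 in the IR libraries. Within WT IR the sum was 1489.5, 2431 and 1230 FPKM, so that the second library lay nearest to sham. The extraction text of the labels speaks of retinas, but 7 retina markers summed to at most 0.596 FPKM in any library.

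The promoters of Acsl4, Lpcat3 and Mboat1 are shown first, since these are the 3 members called higher after IR in the cKO kidneys. Each is the 250 bases before the annotated start, from RefSeq on GRCm38.p6, written 5′ to 3′ on the gene's strand. Capitals mark CCAAT (the CCAAT box) and GGGCGG (the GC box bound by Sp factors), on either strand, with neighbouring matches run together.
Acsl4 promoter, chrX:142390536-142390785, minus strand: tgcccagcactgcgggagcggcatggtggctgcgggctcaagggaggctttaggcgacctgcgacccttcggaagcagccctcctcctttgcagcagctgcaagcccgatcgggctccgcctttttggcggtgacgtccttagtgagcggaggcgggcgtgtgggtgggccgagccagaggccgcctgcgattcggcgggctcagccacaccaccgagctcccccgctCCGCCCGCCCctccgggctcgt
Lpcat3 promoter, chr6:124662854-124663103, plus strand: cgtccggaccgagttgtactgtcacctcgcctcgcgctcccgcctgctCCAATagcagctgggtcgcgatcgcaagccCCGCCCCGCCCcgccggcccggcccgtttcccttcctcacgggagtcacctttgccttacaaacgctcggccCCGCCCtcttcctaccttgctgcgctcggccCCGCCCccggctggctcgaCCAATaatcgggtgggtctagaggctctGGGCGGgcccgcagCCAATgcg
Mboat1 promoter, chr13:30136240-30136489, plus strand: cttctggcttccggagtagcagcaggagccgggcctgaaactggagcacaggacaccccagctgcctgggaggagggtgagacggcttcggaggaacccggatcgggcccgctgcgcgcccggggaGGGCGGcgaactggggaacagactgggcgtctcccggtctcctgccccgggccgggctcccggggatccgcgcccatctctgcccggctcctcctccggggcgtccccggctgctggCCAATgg
All 3 windows are rich in G and C, at 70.8% for Acsl4, 70% for Lpcat3 and 73.2% for Mboat1. Acsl4 had 2 GC boxes and 0 CCAAT boxes in its window. Lpcat3 had 5 GC boxes and 3 CCAAT boxes, and Mboat1 had 1 of each, its CCAAT box starting 7 bases before the gene. Of 32851 promoter windows of the same length, 33.8% held CCAAT and 32.7% held GGGCGG, so either motif is common. The antioxidant response element core (TGACNNNGC, in 10.2% of windows) and the AP-1 site (TGANTCA, in 6.75%) were searched on both strands in the 8 members that have a promoter entry. Neither was found in these windows, which says only that those letters are not there. RefSeq start sites define the windows, and the start used in these kidneys was not measured.

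By mean level over the 12 libraries, the members spanned from Gpx4, rank 98 of all genes at 277 FPKM, to Gch1, rank 13171 at 0.907 FPKM. Por ranked 470 at 88.3 FPKM, Lpcat3 954 at 48.6 FPKM, Scd1 1356 at 34.8 FPKM and Acsl4 2619 at 18.8 FPKM. Acsl3 at 6.85 FPKM, Aifm2 at 5.80, Dhodh at 2.24 and Mboat1 at 2.20 were lower. The hydroperoxide reductase thus stood far above the 3 radical-trapping genes in RNA per length.

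**Figure D1:**
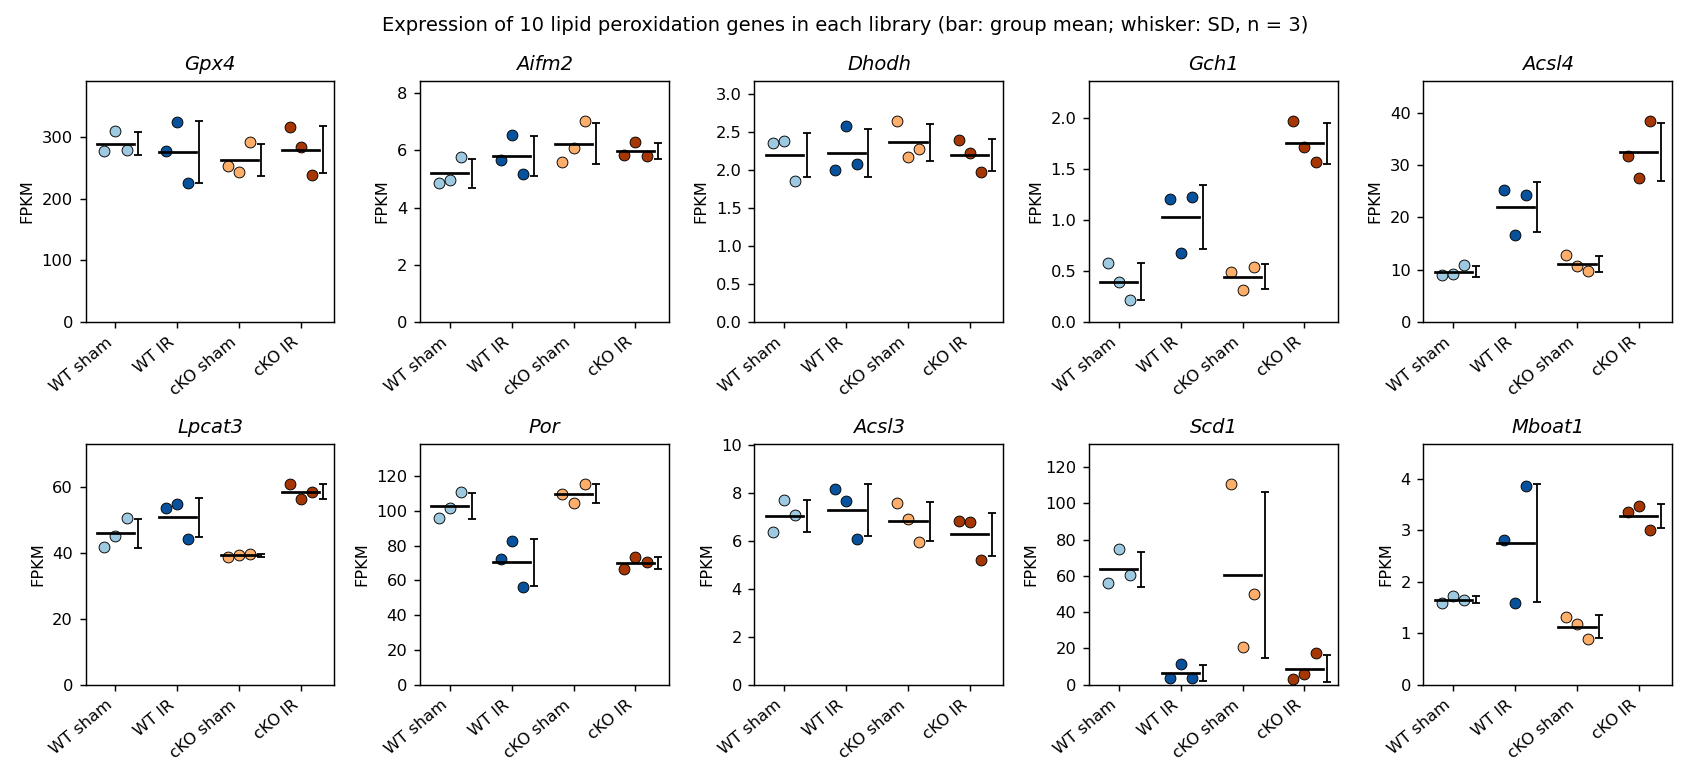
FPKM of each member in every library (points), by group on the horizontal axis, with the group mean (bar) and SD (whisker, n = 3). Acsl4 lies between 16.6 and 38.4 FPKM in the IR libraries and at most at 12.7 FPKM in the sham libraries, Scd1 at most at 17.5 FPKM after IR and at least at 20.8 FPKM in sham, and Gpx4, Aifm2, Dhodh and Acsl3 overlap between sham and IR in each genotype.

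Whether injury moved the 10 genes was asked by IR against sham within each genotype. Acsl4 rose and Scd1 and Por fell in both genotypes, and Lpcat3 and Mboat1 rose in cKO and did not pass in WT, a difference between the genotypes that itself did not pass, while the level of Gpx4 did not pass the test in either. Of the 10 members, 9 had a mean of at least 1 FPKM and entered the limma fit of log2(FPKM + 1), in which a gene is called at a Benjamini-Hochberg adjusted p below 0.05 over 12868 genes. In WT, 3 of these 9 were called, 1 higher and 2 lower, where 42.2% of all tested genes were called (22.6% higher and 19.5% lower). In cKO, 5 of 9 were called, 3 higher and 2 lower, where 50.8% of the tested genes were called (27.8% higher and 23.1% lower). With each library divided by its plain total, 4168 genes were called higher and 1844 lower in WT in place of 2910 and 2514, the median of all genes moved to 0.13, and 6 members were called. The first 2 counts of members are near those shares, so the number of members called is not a result about this set. The 9 had a median log2 difference of 0.04 for WT and −0.05 for cKO, against 0.01 and 0.02 over all tested genes. In bulk RNA, fewer cells of a type and less RNA per cell cannot be told apart, which touches each rise and fall of a member.

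**Figure D2:**
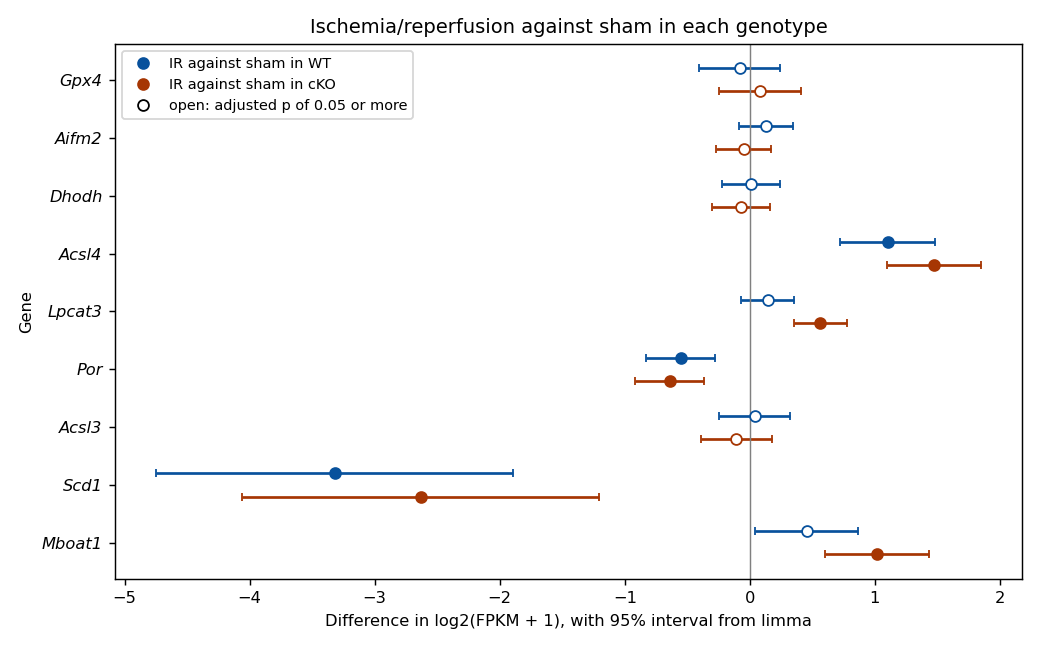
Difference in log2(FPKM + 1) between IR and sham in WT (blue) and cKO (brown) for the 9 tested members, with the 95% interval from limma; filled points passed an adjusted p of 0.05. Acsl4 stands at 1.10 and 1.47, Scd1 at −3.32 and −2.63 with the widest intervals of the set, and Gpx4 at −0.08 and 0.08.

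Gpx4 (ENSMUSG00000075706) encodes the selenoenzyme that reduces phospholipid hydroperoxides inside membranes. WT libraries held 278, 311 and 280 FPKM in sham and 278, 325 and 225 FPKM after IR. The cKO libraries held 253, 244 and 292 FPKM in sham and 316, 284 and 239 FPKM after IR. All 4 groups overlapped, and the lowest and the highest library were both of WT IR. The log2 difference for IR was −0.08 in WT (95% interval −0.41 to 0.24, limma adjusted p = 0.684) and 0.08 in cKO (−0.24 to 0.41, adjusted p = 0.664). Gpx4-ps2, a processed pseudogene with its own row, was read at 71.6 to 112 FPKM, and reads may be split between it and Gpx4, so the level of Gpx4 is uncertain. With the reads of both summed, an alternative chosen after seeing the data, the differences were −0.10 (adjusted p = 0.631) and 0.09 (adjusted p = 0.654).

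Aifm2, whose product FSP1 reduces coenzyme Q at the plasma membrane, averaged 5.20 ± 0.505 FPKM in sham and 5.79 ± 0.701 FPKM after IR in WT kidneys, and 6.24 ± 0.721 and 5.98 ± 0.270 FPKM in cKO kidneys (SD, n = 3). Its differences for IR were 0.13 in WT (adjusted p = 0.321) and −0.05 in cKO (adjusted p = 0.705), and the groups overlapped. When each library was divided by its plain total, the difference in WT was 0.26 and passed (adjusted p = 0.0289). Dhodh, the mitochondrial enzyme that reduces coenzyme Q while making pyrimidines, lay between 1.86 and 2.64 FPKM in all 12 libraries. Its group means were 2.20, 2.22, 2.36 and 2.20 FPKM in the same order, and its differences for IR were 0.01 (95% interval −0.22 to 0.24) and −0.07 (−0.31 to 0.16). Aifm2 overlaps Macroh2a2 on the opposite strand by 596 bases, and whether the counting used strand is not stated.

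Gch1 (ENSMUSG00000037580, chromosome 14), the first and rate-limiting enzyme of tetrahydrobiopterin synthesis, was the one member under the level filter. It was 0.581, 0.388 and 0.217 FPKM in WT sham and 1.20, 0.672 and 1.23 FPKM in WT IR. In cKO it was 0.486, 0.308 and 0.538 FPKM in sham and 1.97, 1.72 and 1.57 FPKM after IR. The IR libraries lay above the sham libraries in both genotypes without overlap, and the cKO IR libraries lay above the WT IR libraries. From 304 against 102 reads, the ratio of IR to sham was 2.63 in WT (95% Clopper-Pearson interval 2.10 to 3.33), and from 515 against 123 reads it was 3.95 in cKO (3.24 to 4.85). These intervals cover counting error only. In the two-sided exact permutation test of 3 against 3 libraries each of these gave p = 0.1, the smallest it can give. In the limma fit with no filter on low values Gch1 had log2 differences of 0.54 (adjusted p = 0.0296) and 0.93 (adjusted p = 0.0013).

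Acsl4 (ENSMUSG00000031278, chromosome X, 141100989 to 141173531, minus strand, as deposited, in a build the table does not name) encodes the acyl-CoA synthetase that activates arachidonic and adrenic acid for phospholipids. It was 8.91, 9.08 and 10.8 FPKM in WT sham and 25.3, 16.6 and 24.3 FPKM in WT IR. In cKO it was 12.7, 10.8 and 9.67 FPKM in sham and 31.7, 27.5 and 38.4 FPKM after IR. Every IR library lay above every sham library, with the second WT library the lowest of the IR libraries. Acsl4 rose 2.30-fold by the ratio of means in WT (log2 difference 1.10, SE 0.17, limma adjusted p = 0.000693) and 2.95-fold in cKO (1.47, SE 0.17, adjusted p = 6.8e-05). Without any 1 library the difference stayed between 0.99 and 1.29 in WT and between 1.35 and 1.58 in cKO, and passed each time. The second WT library, where Acsl4 was lowest after IR, also had the lowest summed FPKM of the IR libraries for neutrophil markers (10.9, against 16.3 to 52.0) and macrophage markers (36.3, against 54.1 to 102). The macrophage sum of the second WT IR library was below those of all sham libraries, 49.3 to 75.5 FPKM. The third WT IR library had the highest sums of both lists, but its Acsl4 was below that of the first. Neutrophil markers summed to 1.81 to 3.21 FPKM in the sham libraries and rose after IR, 3 of 4 tested in WT and 4 of 4 in cKO. Of 8 tested macrophage markers 1 rose and 1 fell in WT, and 2 rose and 1 fell in cKO. The part of either cell type in the level of Acsl4 was not tested.

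Lpcat3 (ENSMUSG00000004270, chromosome 6, 124639990 to 124681381), the acyltransferase that inserts polyunsaturated chains into lysophospholipids, was 41.9, 45.2 and 50.5 FPKM in WT sham and 53.5, 54.9 and 44.0 FPKM in WT IR, which overlapped. In cKO it was 38.8, 39.4 and 39.7 FPKM in sham and 60.9, 56.4 and 58.4 FPKM after IR, the lowest and the highest of the 4 groups. In cKO Lpcat3 rose 1.49-fold (log2 difference 0.56, SE 0.10, adjusted p = 0.000705). In WT the difference was 0.14 (SE 0.10, adjusted p = 0.258), and it passed at 0.29 with plain library totals (adjusted p = 0.00878) and at 0.21 with quantile normalization (adjusted p = 0.0416). Lpcat3 overlaps Emg1 on the opposite strand by 334 bases, a gene at 8.44 FPKM on average.

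Por (ENSMUSG00000005514, chromosome 5, 135698887 to 135764180) encodes the cytochrome P450 reductase, an electron donor that can feed lipid peroxidation. It was 95.9, 102 and 111 FPKM in WT sham and 72.4, 82.7 and 56.2 FPKM in WT IR. In cKO it was 109.9, 105 and 116 FPKM in sham and 66.6, 73.5 and 70.4 FPKM after IR. Every IR library lay below every sham library. Por fell to 0.685 of its sham mean in WT (log2 difference −0.55, SE 0.13, adjusted p = 0.00527) and to 0.638 in cKO (−0.64, SE 0.13, adjusted p = 0.00165). The kidney segment markers fell as well, 6 of 11 in WT and 7 of 11 in cKO, and within WT IR the order of the libraries in Por was that of the summed segment markers, highest in the second and lowest in the third. The part of lost tubular RNA in the fall of Por was not tested.

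Scd1 (ENSMUSG00000037071, chromosome 19, 44382894 to 44396318, minus strand) encodes the stearoyl-CoA desaturase that makes oleate and palmitoleate. It was 56.0, 74.6 and 60.4 FPKM in WT sham and 3.62, 11.2 and 3.70 FPKM in WT IR. In cKO it was 111, 20.8 and 49.8 FPKM in sham and 3.21, 5.65 and 17.5 FPKM after IR. The IR and sham libraries did not overlap in either genotype, and the cKO sham libraries spread over a wider range than those of any other group. Scd1 fell 10.3-fold by the ratio of means in WT (log2 difference −3.32, SE 0.64, adjusted p = 0.00229) and 6.87-fold in cKO (−2.63, SE 0.64, adjusted p = 0.00602). Without any 1 library the difference ran from −3.78 to −3.08 in WT and from −3.23 to −2.05 in cKO, and it passed each time. Fat cells also express Scd1, and the 8 fat cell markers summed to 5.84 to 6.82 FPKM in WT sham and 3.85 to 5.44 FPKM in cKO sham, with Plin1, Retn, Lep and Ucp1 at 0 in both groups. After IR the markers summed to 6.18, 14.6 and 22.8 FPKM in WT and to 5.48, 4.80 and 15.0 FPKM in cKO. Most of the sham sums was Fabp4, which ranged from 5.63 to 6.74 FPKM in the WT sham libraries and from 3.69 to 5.29 FPKM in the cKO sham libraries. The highest Scd1 of the cKO IR libraries was in the third, where the marker sum was also highest, with Fabp4 at 13.2 FPKM and Adipoq, Cfd, Retn and Lep at 0. In WT IR the 2 did not go together: library 3 had the highest marker sum, 22.8 FPKM, with Scd1 at 3.70 FPKM. Scd1 was highest in WT IR library 2, at 11.2 FPKM, where the marker sum was 14.6 FPKM. Cfd was 0, 5.51 and 7.52 FPKM and Adipoq 0, 1.18 and 0.926 FPKM in WT IR. Cfd was called higher after IR in WT (log2 difference 1.89, limma adjusted p = 0.0283), where Scd1 fell. The part of fat cells in the level of Scd1 was not tested.

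Mboat1 (ENSMUSG00000038732, chromosome 13, 30320472 to 30430700), a lysophospholipid acyltransferase that prefers monounsaturated chains, was 1.58, 1.72 and 1.65 FPKM in WT sham and 2.81, 1.57 and 3.86 FPKM in WT IR. In cKO it was 1.32, 1.17 and 0.881 FPKM in sham and 3.35, 3.46 and 3.01 FPKM after IR. The WT groups overlapped through the second IR library alone, and the cKO groups did not overlap. In cKO Mboat1 rose 2.92-fold by the ratio of means (log2 difference 1.01 with 1 FPKM added, which understates the change of a low gene, SE 0.19, adjusted p = 0.00119). In WT the difference was 0.45 (SE 0.19, adjusted p = 0.0744) and 0.70 without the second IR library (adjusted p = 0.00147). It also passed in WT at 0.56 with plain library totals (adjusted p = 0.0449) and at 0.49 with quantile normalization (adjusted p = 0.0476). Acsl3, the synthetase that activates oleate, lay between 5.22 and 8.15 FPKM in all libraries, with differences for IR of 0.04 in WT (95% interval −0.25 to 0.32) and −0.11 in cKO (−0.39 to 0.18). Its gene model shares 13475 bases with Utp14b on the same strand, a gene at 0.824 FPKM on average. The 3 monounsaturated-side genes took separate courses: Scd1 fell, Acsl3 did not pass and Mboat1 rose in cKO.

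Set against each other library by library, the FPKM of Acsl4 was 1.40, 1.18 and 1.53 times that of Acsl3 in WT sham and 3.11, 2.16 and 3.99 times in WT IR. In cKO the ratio was 1.68, 1.56 and 1.63 in sham and 4.66, 4.05 and 7.37 after IR. The group means were 1.37 ± 0.175, 3.09 ± 0.916, 1.62 ± 0.0610 and 5.36 ± 1.77 (SD, n = 3), and every IR library exceeded every sham library. All 3 cKO IR libraries also exceeded all 3 WT IR libraries, a difference that was not tested.

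**Figure D3:**
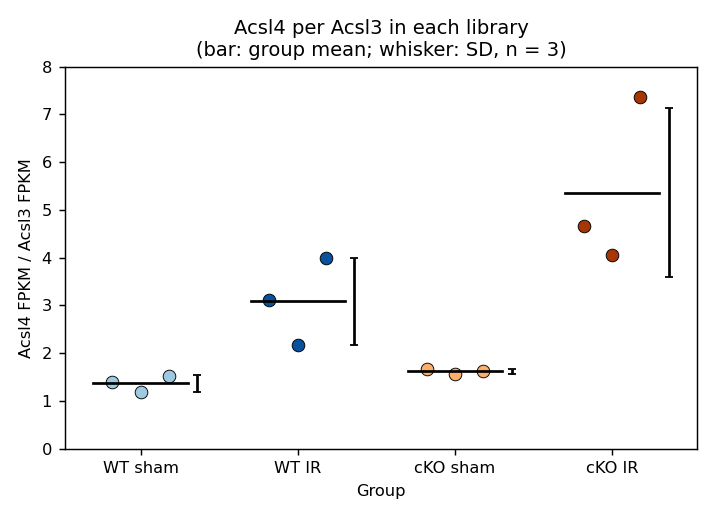
Ratio of Acsl4 FPKM to Acsl3 FPKM in each library (points), by group, with the group mean (bar) and SD (whisker, n = 3). The ratio is at most 1.68 in the sham libraries and at least 2.16 in the IR libraries, and the third cKO IR library, at 7.37, is the highest.

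Whether the Krt20 knockout moved the 10 genes was asked by cKO against WT within each surgery, and whether it changed the response to IR was asked by the interaction of both factors. No member was called in any of these 3 comparisons. In sham kidneys 0 of 9 members were called by limma, where 1.10% of all genes were called. Of all 12868 tested genes 1472 had an unadjusted p below 0.05, and 2 members did. These were Aifm2, with a log2 difference of 0.22 (SE 0.10, adjusted p = 0.429) and overlapping groups, and Lpcat3, with −0.21 (SE 0.10, adjusted p = 0.43) and cKO libraries all below the WT libraries. Mboat1 was also lower in each cKO sham library than in each WT sham library, with a log2 difference of −0.33 (adjusted p = 0.60). Scd1 had nearly equal means, 63.7 ± 9.70 FPKM in WT and 60.5 ± 45.9 FPKM in cKO (SD, n = 3), but the interval of its difference, −1.79 to 1.06, is wide, and the cKO libraries held both the highest and the lowest sham value.

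After IR, 0 of 9 members were called and 1 had an unadjusted p below 0.05, and 0% of all tested genes were called, although 1926 of the 12868 had an unadjusted p below 0.05. Alternative settings called 0 to 12 genes and 0 members. The 1 member was Acsl4, at 1.48 times the WT IR mean in cKO IR (log2 difference 0.55, SE 0.17, unadjusted p = 0.00841, limma adjusted p = 0.201). Its cKO IR libraries, 27.5 to 38.4 FPKM, lay above its WT IR libraries, 16.6 to 25.3 FPKM. Lpcat3 likewise did not overlap, at 56.4 to 60.9 against 44.0 to 54.9 FPKM (log2 difference 0.21, adjusted p = 0.342), nor did Gch1, with a ratio of reads of 1.68 (95% counting interval 1.46 to 1.95). The exact permutation test of Gch1 gave p = 0.1, the smallest possible, and with no filter limma gave 0.45 (adjusted p = 0.4). The share of all tested genes without overlap was not counted in any comparison, in sham or after IR. Lack of overlap by itself is therefore not read as a result about the members. Gpx4 differed by 0.03 (95% interval −0.30 to 0.35) and Por by 0.01 (−0.27 to 0.29). The summed kidney segment markers of the same libraries, 1081 to 1346 FPKM in cKO IR and 1230 to 2431 in WT IR, overlapped. Of the 11 markers 4 had an unadjusted p below 0.05 in limma, all lower in cKO IR, though no gene at all was called in this comparison: Slc34a1 (log2 difference −1.16, adjusted p = 0.227), Slc5a2 (−0.62, adjusted p = 0.177), Lrp2 (−0.56, adjusted p = 0.254) and Atp6v1b1 (−0.42, adjusted p = 0.304). Slc5a2, a proximal tubule glucose transporter, was 45.9 to 69.5 FPKM in cKO IR and 78.5 to 101 FPKM in WT IR, and Lrp2, the proximal tubule receptor megalin, 60.5 to 72.0 and 73.4 to 142 FPKM, without overlap. Slc12a3, a marker of the distal convoluted tubule, did not overlap either, at 68.8 to 72.0 and 79.7 to 91.3 FPKM. The proximal tubule markers Slc34a1, at 108 to 282 and 248 to 720 FPKM, and Slc22a6, at 134 to 219 and 156 to 363 FPKM, overlapped. The part of these marker differences in the values of Acsl4, Lpcat3 and Gch1 was not tested.

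In the interaction, the IR effect in cKO minus that in WT, limma called 0 of 9 members and 0.878% of the tested genes, 38 of them higher and 75 lower, or 29 and 111 under plain library totals. Of all 12868 tested genes 1878 had an unadjusted p below 0.05. Lpcat3 was the 1 member that did, at 0.42 (95% interval 0.12 to 0.72, adjusted p = 0.18). Mboat1 had 0.56 (−0.03 to 1.15, adjusted p = 0.363), Acsl4 0.37 (−0.16 to 0.90, adjusted p = 0.527), Scd1 0.69 (−1.33 to 2.70, adjusted p = 0.783) and Gpx4 0.17 (−0.30 to 0.63, adjusted p = 0.773). Thus the calls of Lpcat3 and Mboat1 in cKO and not in WT are not shown to be a difference between the genotypes. The 2 IR comparisons have no libraries in common, but each shares its libraries with the genotype comparisons, so those are not independent of each other.

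**Figure D4:**
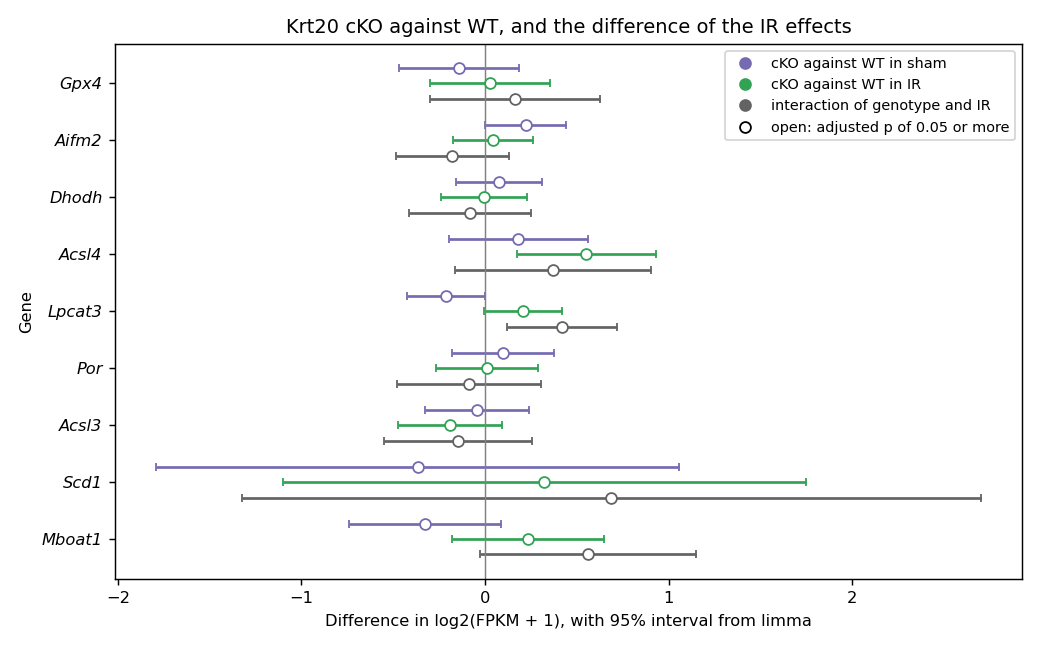
Difference in log2(FPKM + 1) for cKO against WT in sham (purple), cKO against WT after IR (green) and the interaction (grey), for the 9 tested members, with the 95% interval from limma. No point passed an adjusted p of 0.05, and the intervals of Acsl4 after IR (from 0.17 to 0.93) and of Lpcat3 in the interaction (from 0.12 to 0.72) lie above 0 before adjustment.

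The neighbouring pathways were read from 8 lists of genes, none of them members. Over all tested genes 22.6% were called higher and 19.5% lower for IR in WT, and 27.8% higher and 23.1% lower in cKO. The counts of the lists were not tested against these shares. Of 17 tested genes for polyunsaturated phospholipid supply and lipoxygenases, 3 rose and 7 fell in WT and 3 rose and 6 fell in cKO. Their median difference was −0.18 for WT and −0.13 for cKO. Fads2, the desaturase at the entry to arachidonate synthesis, fell by 1.28 in WT and by 1.70 in cKO on the log2 scale, from 72.1 to 30.7 and from 63.8 to 19.2 FPKM. Agps, of ether lipid synthesis, fell by 1.49 and by 1.26. Acsl5, another acyl-CoA synthetase, rose by 0.58 and 0.64. Lpcat4 rose by 0.45 in WT and by 0.55 in cKO. Sat1, a polyamine acetyltransferase, rose by 0.58 in cKO, and its difference of 0.46 in WT did not pass (limma adjusted p = 0.0652). The rise of Acsl4 thus stood beside falls of Fads2 and Agps in the same libraries.

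Of 12 tested genes for monounsaturated and saturated fatty acid synthesis, 1 rose and 5 fell in WT, and 2 rose and 5 fell in cKO, with medians of 0.08 and −0.08. Me1, the malic enzyme that supplies NADPH, fell by 0.98 in WT and by 0.76 in cKO. Acacb, the mitochondrial acetyl-CoA carboxylase, fell by 0.91 in WT and by 1.05 in cKO. Scd2, another stearoyl-CoA desaturase, went from 15.7 to 19.7 FPKM in WT, which did not pass, and from 25.0 to 14.1 FPKM in cKO, and it fell by 0.80 on the log2 scale in the latter. Cyb5r3, whose product passes electrons to desaturases, rose by 0.39 and 0.79, and Acly rose by 0.50 in cKO. Fasn, the fatty acid synthase, did not pass in either genotype, with log2 differences of −0.01 and −0.11.

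For Gpx4, glutathione and selenium are the inputs. Of 9 tested genes for glutathione supply, 2 rose and 3 fell in WT and 3 rose and 3 fell in cKO, with medians of 0.07 and 0.03. Cbs, of the transsulfuration route to cysteine, fell by 2.02 and by 1.99, from 32.1 to 7.90 and from 33.5 to 7.70 FPKM. Ggt1 fell by 0.89 in WT and by 0.63 in cKO, and Cth by 0.80 in WT and by 0.80 in cKO. Chac1, which degrades glutathione, rose by 1.14 and 1.32 from low levels (0.540 to 2.41 and 0.525 to 2.85 FPKM), and Gsr, the glutathione reductase, rose by 0.45 and 1.17. Slc7a11, the cystine importer, stayed under the filter, with means of at most 0.419 FPKM in any group. It averaged 0.0161 ± 0.0141 FPKM in sham and 0.271 ± 0.239 FPKM after IR in WT (SD, n = 3). In cKO it averaged 0.00962 ± 0.00811 and 0.419 ± 0.148 FPKM, higher after IR at very low levels. It was not in the fit reported. Of 8 selenoprotein synthesis genes 1 rose and 2 fell in each genotype, with medians of −0.15 and −0.08. Sephs2, the selenophosphate synthetase, fell by 0.95 and by 0.79, Sepsecs by 0.37 and by 0.43, and Trnau1ap rose by 0.36 and 0.55. Gpx4 itself had intervals spanning 0 in the same libraries.

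For the radical traps, 14 coenzyme Q synthesis genes were tested, of which 1 rose and 4 fell in WT and 1 rose and 2 fell in cKO, with medians of −0.12 and −0.05. Coq8a, an atypical kinase of the pathway, fell by 1.39 and by 1.36, Coq9 by 0.63 and by 0.81, and Coq8b rose by 0.34 and 0.44. All 6 tested genes for tetrahydrobiopterin around Gch1 had lower means after IR, of which 5 passed in WT and 3 in cKO and none rose, with medians of −0.69 and −0.66. Pcbd1, of its recycling, fell by 0.96 and by 1.08, and Qdpr, the recycling reductase, by 0.92 in WT and by 1.25 in cKO. Gchfr, the feedback regulator of Gch1, fell by 1.37 in WT. Its difference of −0.62 in cKO did not pass (limma adjusted p = 0.105). Gch1 was the exception in direction, with more reads after IR in both genotypes. Of 10 genes for vitamin K, quinone and aldehyde defense, 2 rose and 4 fell in WT and 3 rose and 3 fell in cKO, with medians of −0.24 and −0.21. Akr1b8, an aldo-keto reductase, rose by 3.13 and 4.03, and Nqo1, the quinone reductase, by 1.01 and 2.24. Akr1a1, another aldo-keto reductase, fell by 0.83 and by 0.84.

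Nqo1 was the only gene of these 8 lists called in the interaction, where 0.878% of all tested genes were called. That count was not tested against this share. It averaged 31.1 ± 0.279 FPKM in sham and 64.3 ± 10.1 FPKM after IR in WT, and 19.7 ± 2.32 and 97.7 ± 18.1 FPKM in cKO (SD, n = 3), an interaction of 1.23 (SE 0.21, limma adjusted p = 0.0247). The call was lost, with adjusted p from 0.0616 to 0.0806, without the second or the third WT sham library, the second or the third cKO sham library, or the first cKO IR library. It was also lost with a replicate block (adjusted p = 0.0548) and with no filter on low values (adjusted p = 0.0543). None of the lists had a called gene in cKO against WT, in sham or after IR. Of the 5 pyrimidine synthesis genes beside Dhodh, 4 rose in WT and 4 rose and 1 fell in cKO, with medians of 0.51 and 1.09. Ctps, the CTP synthase, rose by 2.08 and 2.21, Cad, which carries the first steps of the pathway, by 1.28 and 1.29, and Uck1, a salvage kinase, fell by 0.45 in cKO, while Dhodh had intervals spanning 0. Several of the smaller calls were lost in at least 1 alternative setting, namely Lpcat4, Gsr, Trnau1ap and Coq8b in WT, Sepsecs in both genotypes and Sat1 in cKO.

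**Figure D5:**
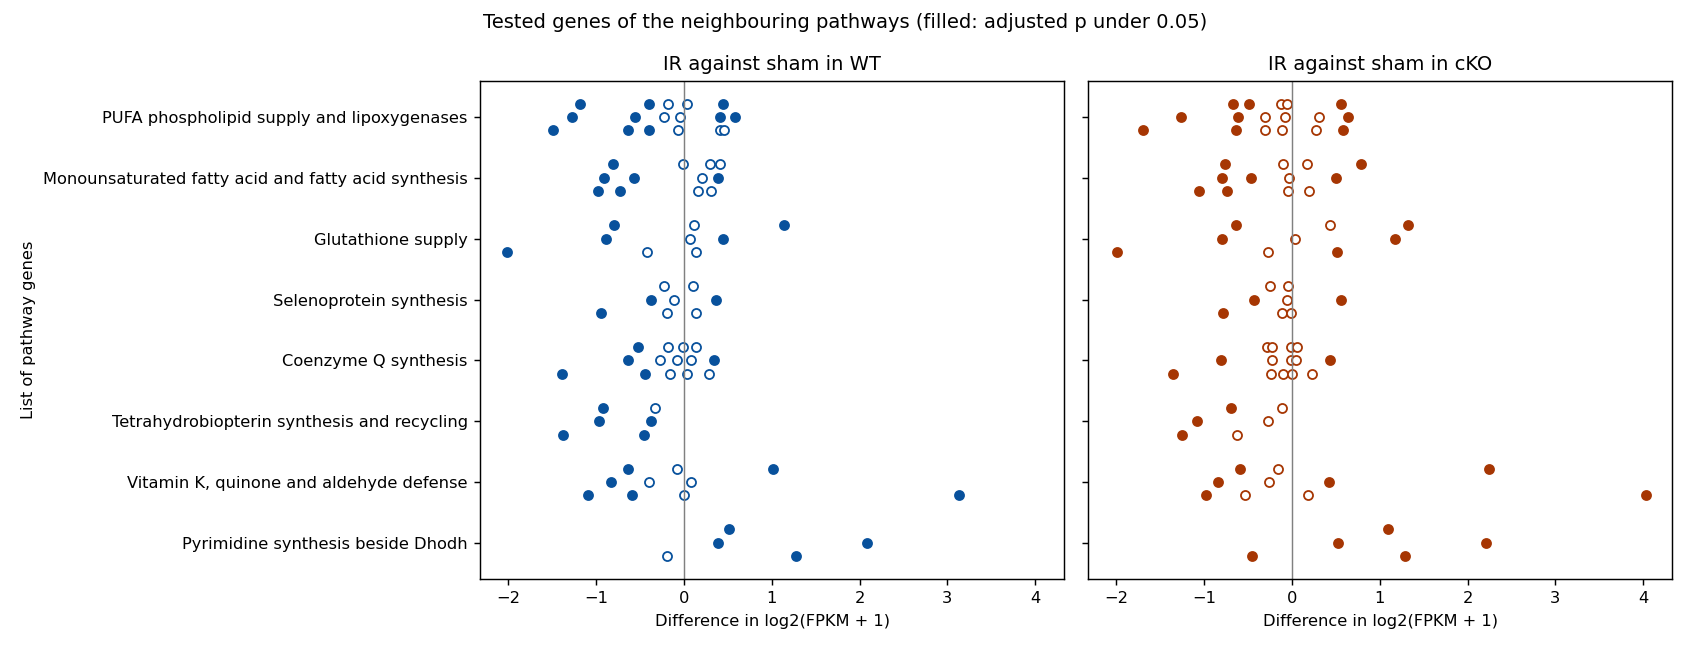
Difference in log2(FPKM + 1) between IR and sham for every tested gene of the 8 lists, in WT (left) and cKO (right); filled points passed an adjusted p of 0.05. The tetrahydrobiopterin genes all lie below 0, and the pyrimidine genes that rose reach 2.08 in WT and 2.21 in cKO.

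The tested genes whose log2(FPKM + 1) was most like that of Acsl4 over the 12 libraries were Steap2, a metalloreductase (Pearson r 0.994), Cfap69 (0.991) and Ctsd, the lysosomal protease cathepsin D (0.991). Steap2 went from 12.5 to 29.0 FPKM in WT and from 14.6 to 41.8 FPKM in cKO. For Scd1 they were 4833418N02Rik (0.958), Gid4 (0.949) and Mettl7a2 (0.949). Mettl7a2 went from 35.5 to 3.91 FPKM in WT and from 33.2 to 3.30 FPKM in cKO. These values describe libraries that share the same sham and IR split, and the genes were the highest of 12868.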

How the data were processed

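The authors deposited 1 table of FPKM per gene and library, with gene model lengths and coordinates. Alignment was by HISAT2 2.2.1, per the submitters' processing notes, which name the builds mm8 and mm9. The counter, the annotation and the table's build: not given in the sources used here. Gene coordinates are printed as deposited. FPKM were whole multiples of a step per library and length, from which reads were recovered. The divisor behind the FPKM was 0.933 to 1.13 times those reads, below 1 in every sham library and above 1 in every IR library. Plain library totals are the alternative without it. Depth, read ratios, plain totals and the sum of Gpx4 and Gpx4-ps2 use the recovered reads.

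The 12868 genes averaging 1 FPKM or more over 12 libraries were fitted as log2(FPKM + 1) with limma 3.58.1 (R 4.3.3), with a trend in mean expression, 1 mean per group, no replicate block, two-sided tests and Benjamini-Hochberg adjustment over all tested genes. The 4 groups shared 1 estimate of spread, with 8 residual degrees of freedom, so a group left with 2 libraries is assumed to vary like the others. The fit was tested on simulated data. Gch1, below the filter, had an exact permutation test (scipy 1.17.1).

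The members and lists were chosen with earlier results of these data known. All members are named. From each list, up to 2 called genes with the largest differences in each direction are named for the 2 IR comparisons, and up to 4 called genes for the others; 1 gene so chosen is not reported here. Named outside this rule, after their values were seen, are Scd2 in WT, Fasn and Slc7a11. Also outside it are the values of Lpcat4, Me1, Ggt1 and Gchfr in cKO and of Sat1, Cth and Qdpr in WT. The alternative settings counted below do not cover these values. The same holds for the marker genes given with values of their own. These are Slc34a1, Slc5a2, Lrp2, Atp6v1b1, Slc12a3, Slc22a6, Fabp4, Cfd and Adipoq. Alternatives were pseudocounts of 0.1 and 0.5, no filter or 5 FPKM, plain totals, quantile normalization, only the groups compared, no trend, a replicate block and each library left out.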

Additional observations from a re-analysis of the deposited data

Results flagged for a closer look

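Nqo1, the quinone reductase, is given here because its response to IR differed between the genotypes by the interaction test: the log2 difference was 1.23 (SE 0.21, limma adjusted p = 0.0247), higher in cKO, and the call was lost on leaving out any 1 of 5 libraries, with a replicate block (adjusted p = 0.0548) and with no filter on low values (adjusted p = 0.0543). No member met this test, which 0.878% of all tested genes met, and groups of 3 are too small for a check of outlying libraries.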

How the results depend on the processing

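Of 743 alternative values for members, 737 were counted as unchanged, 6 newly passed, all for IR in WT (Aifm2, Lpcat3 and Mboat1), and 0 reversed or lost a call. The unchanged values of the 9 tested members kept their direction where called and their side of the threshold. Those of Gch1 come from the exact test, which cannot fall below 0.1, so they could not change side, and their direction was not checked. The limma fit of Gch1 with no filter is outside this count. It passed for IR in WT (adjusted p = 0.0296) and in cKO (adjusted p = 0.0013). Of 871 for list genes and Krt20, 36 lost a call and 0 reversed. Members called for IR in WT numbered 3 in the fit reported, 6 with plain library totals and 5 with quantile normalization, and 3 to 4 without any 1 library. Plain totals shift the median of all genes by 0.13 in WT and turn 2910 higher and 2514 lower calls into 4168 and 1844. For IR in cKO 4 to 6 members were called in any setting, and 0 in the other comparisons. Genes called for cKO against WT after IR ran from 0 to 12 against 0. Genes called for cKO against WT in sham ran from 55 to 251 against 142 in the fit reported, and for the interaction from 41 to 150 against 113.

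Libraries of the same number did not deviate together throughout: between WT IR and cKO IR the correlations were −0.01, 0.15 and 0.40, and between the sham groups −0.12, −0.08 and −0.12. The replicate block gave 3 and 5 members called for IR in WT and in cKO and 0 elsewhere, with 5242, 6353, 123, 0 and 73 genes called in the 5 comparisons. Depth limits Gch1 and Mboat1, at 18 and 47 reads in their lowest libraries. Count models were not run, since the table holds FPKM.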
